A study of Sus scrofa with 13 samples.

Results

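The mitochondrial genome genes were examined in bulk RNA sequencing of pig liver. They were taken as the run of 37 consecutive Ensembl gene identifiers from ENSSSCG00000018060 to ENSSSCG00000018096, which make up 37 of the 35670 genes in the count table. Of these, 13 carry a symbol, and they are the 13 protein genes of the mitochondrial genome. The other 24 carry an identifier alone. The RefSeq annotation lists 2 rRNA genes and 22 tRNA genes beside the 13 protein genes on the pig mitochondrial genome, but the tables used here do not pair these names with the 24 identifiers, so they are described as genes without a symbol.

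The study infused human bone marrow mesenchymal stromal cells (BM-MSCs) into pig livers after warm ischemia, by way of the hepatic artery or the portal vein, and took liver biopsies for RNA. All animals were female Yorkshire pigs. Baseline was represented by 2 libraries, labelled 1a and 2, from liver without ischemia, reperfusion or cells. The ischemic controls were 3 livers with 45 min of ischemia and 6 h of reperfusion without any infused cells. Another 4 livers were infused through the artery and 4 through the portal vein, with the same 45 min of ischemia and 6 h of reperfusion and with 3 M (M for mega) human BM-MSCs per kg of body weight. The labels do not say whether a baseline biopsy and a later biopsy came from the same pig, and p-values measure the spread between these libraries.

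The mitochondrial genome is a small circle of DNA present in many copies in each cell. Both strands are transcribed into long RNAs that are cut, mostly at the tRNAs that lie between the other genes, into separate messengers, rRNAs and tRNAs. Its protein genes encode core subunits of the respiratory chain, and hepatocytes, the main cells of the liver, are rich in mitochondria. ND1, ND2, ND3, ND4L, ND4, ND5 and ND6 are subunits of complex I (NADH dehydrogenase), CYTB is a subunit of complex III, COX1, COX2 and COX3 form the core of complex IV (cytochrome c oxidase), and ATP6 and ATP8 belong to complex V (ATP synthase). ND6 is the only protein gene that is read from the light strand.

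On the mitochondrial chromosome (MT) of the RefSeq annotation of Sscrofa11.1, ND1 is the first protein gene, at positions 3922 to 4876, and CYTB is the last, at positions 15342 to 16481. COX1 lies at 6511 to 8055 and COX3 at 9800 to 10583. ATP8 (8959 to 9162) overlaps ATP6 (9120 to 9800) by 43 bases, ND4L (11069 to 11365) overlaps ND4 (11359 to 12736) by 7 bases, and ND5 (12935 to 14755) overlaps ND6 (14739 to 15266) by 17 bases. How the counting treated reads that lie over both genes of such a pair is not stated, so the counts of these pairs are uncertain to that extent. The libraries were made from poly-T selected RNA and do not keep the strand, so that ND6 reads cannot be told from reads of the opposite strand.

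Libraries held 18975413 to 35949178 counts in total. Summed hepatocyte markers were between 28720 and 83050 CPM (counts per 1 M counts of the library) in every library, so the labelled tissue was seen in all 13. Every pair of libraries of the same group differed beyond counting error. In the mitochondrial genes 4 libraries stood apart. Baseline 2 and Arterial infusion 3 shared an unusual composition that is described with ATP8, and Portal infusion 1 held far more counts on the genes without a symbol than any other library. Arterial infusion 1 had the highest or lowest share of mitochondrial messengers for 6 of the 13 protein genes, next to 7 for Baseline 2.

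The 37 genes took between 4.52% and 22.1% of all counts of a library. The share was 7.002% and 4.52% at baseline. In the ischemic controls it was 7.96%, 4.88% and 7.43%, which overlaps the baseline range. After arterial infusion it was 7.53%, 22.1%, 7.59% and 15.4%, and after portal infusion 6.32%, 11.999%, 9.97% and 16.2%. The means were 5.76% ± 1.76 (SD, n = 2) at baseline, 6.76% ± 1.65 (n = 3) in controls, 13.2% ± 7.03 (n = 4) after arterial and 11.12% ± 4.12 (n = 4) after portal infusion. Of the 8 infused livers, 5 lay above the highest control and 3 lay within the range of the controls, so the groups overlapped. Each share is known to within 0.0156 percentage points by its 95% exact binomial (Clopper-Pearson) interval, which covers counting error only, and livers of the same group differed by far more. Being a sum over the chosen genes, this share was not tested. In bulk RNA, fewer cells of a type and less RNA per cell cannot be told apart.

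**Figure D1:**
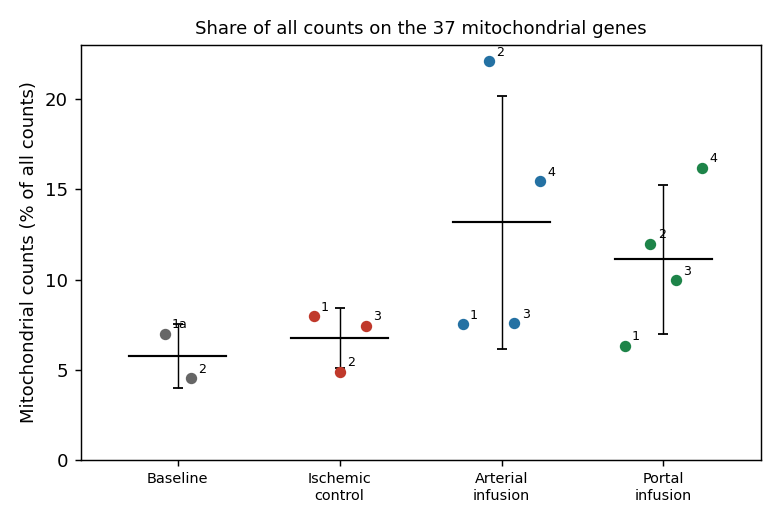
Percent of all counts on the 37 mitochondrial genes (y axis, from 0) for each of the 13 libraries by group (x axis). Points are libraries with their replicate number, horizontal lines are group means and vertical bars are ± 1 SD. The infused livers range from 6.32% to 22.1% and overlap the controls at 4.88% to 7.96%.

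COX1 was among the 10 genes with the most counts in every library, and it was the first of all genes in Arterial infusion 2 and Portal infusion 4. Of the 20 genes with the most counts, between 3 (Ischemic control 2) and 9 (Arterial infusion 2) were mitochondrial. Compared per length, COX3 had the highest level, with a median of 21498 CPM per kb over the 13 libraries, followed by ATP6 (14445), COX2 (14154) and COX1 (13980 CPM per kb). COX3 was first in 10 libraries and ATP6 in the other 3. ATP6, COX2 and COX1 exchanged places between libraries and their medians lay far closer together than the spread of any of them.

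A step below came CYTB with a median of 5010 CPM per kb, ND4 with 4665, ND1 with 4314 and ND2 with 3795. ND6 had 2966, ND3 2558, ND5 2388 and ND4L 2350 CPM per kb. The ranges of these 8 genes over the libraries overlapped, and their order changed from library to library. ATP8, which encodes a small subunit of ATP synthase, was the lowest with 978 CPM per kb and also the most variable, from 10.2 to 3076. Since ATP8 and ATP6 lie on 1 messenger, the distance between their levels also depends on how reads over both genes were counted.

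**Figure D2:**
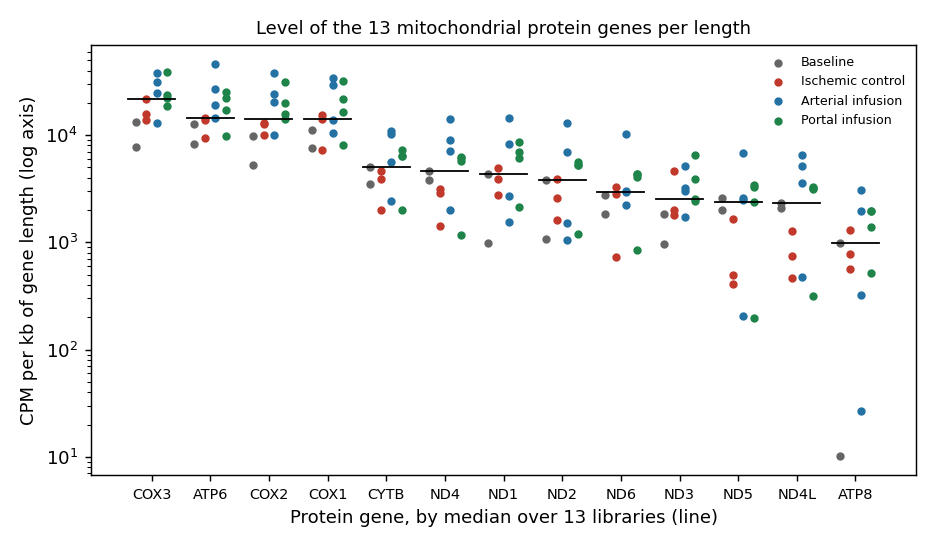
Level of each of the 13 mitochondrial protein genes in CPM per kb of gene length (y axis, log scale), ordered by the median over all 13 libraries (black lines). Points are libraries, coloured by group. COX3, ATP6, COX2 and COX1 have medians above 13980, ATP8 has the lowest median at 978.

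The comparison of ischemic controls with baseline asks whether these transcripts differed after 45 min of ischemia and 6 h of reperfusion. None of the 13 protein genes passed the test across all 16481 genes (edgeR quasi-likelihood test, Benjamini-Hochberg adjustment, lowest adjusted p of a protein gene = 0.978). The background was 0% of all genes tested. At an unadjusted p under 0.05 there were 0 of 13 protein genes by edgeR against 4.37% of all genes. After adjustment DESeq2 and limma's voom also called 0 of 13. Unadjusted, voom had 3 of 13 and DESeq2 over all libraries 0 of 13, without a share of all genes for comparison. The median log2 fold change of the 13 was 0.33, beside 0.0048 for all genes, with 9 genes higher and 4 lower. Without Baseline 2 this median was -0.026, and without Baseline 1a it was 0.63.

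ND4L, ND4 and ND5, which follow each other on the genome, had the lowest log2 fold changes in the controls relative to baseline, whereas ND6, the complex I gene beyond ND5, had 0.15 ± 0.89 (SE). ND4L measured 616 and 698 CPM at baseline against 376, 139 and 221 CPM in the controls, a log2 fold change of -1.37 ± 0.94 (SE) with an unadjusted p of 0.164 and an adjusted p of 0.978 by edgeR. ND5 measured 4678 and 3608 CPM at baseline against 3029, 900 and 739 CPM, a log2 fold change of -1.32 ± 1.16 (SE; adjusted p = 0.978 by edgeR). ND4 was at 5273 and 6428 CPM against 4318, 1977 and 3984 CPM. For these 3 genes every control lay below both baseline libraries, although the edgeR test was not passed.

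COX2 and COX3 lay on the other side. COX3 was at 10445 and 6050 CPM at baseline and at 12461, 10920 and 16854 CPM in the controls, a log2 fold change of 0.78 ± 0.59 (SE; adjusted p = 0.978 by edgeR). COX2 was at 6810 and 3637 CPM against 8949, 6871 and 8711 CPM. In all, 5 of 13 protein genes did not overlap between the 2 groups, which is close to the 30.8% of all genes tested that did not overlap and is therefore no result about the mitochondrial genes. ND3 had the largest positive log2 fold change, 1.19 ± 0.66 (SE; adjusted p = 0.978 by edgeR), and its control values of 697, 1613 and 619 CPM overlapped the baseline values of 635 and 333 CPM. Without Ischemic control 2 it was 0.45 ± 0.61 (SE; adjusted p = 1 by edgeR).

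Within the mitochondrial messengers, the picture is one of shares. Each protein gene was expressed as a percent of the counts on all 13 protein genes of its library, which leaves out the total amount. COX1 held 21.7% to 31.2% in all libraries, and COX1, COX2, COX3 and ATP6 together held 59.9% to 84.0%. The 7 complex I genes held 29.7% and 31.3% at baseline. In the controls they held 23.5%, 22.01% and 16.8%, below both baseline libraries. After arterial infusion they held 12.2%, 31.0%, 27.5% and 23.6%, and after portal infusion 12.8%, 26.0%, 29.7% and 20.1%. The infused livers thus spanned the values of both other groups, with 5 of 8 above the highest control and Arterial infusion 1 and Portal infusion 1 below the lowest.

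The complex IV genes showed the mirror image. Baseline had 49.4% and 47.3% on them, and the controls had 57.2%, 59.9% and 64.2%. In the infused livers they ranged from 48.8% to 71.0%. CYTB, the complex III subunit, held 8.18% and 8.83% at baseline and 6.60%, 4.75% and 6.01% in controls, and 3.70% to 8.42% after infusion. The complex V genes, nearly all of whose counts are ATP6, held 12.7% and 12.6% at baseline, 12.7% to 13.4% in controls and 11.08% to 17.4% after infusion. Shares of 1 total are tied to each other, so these are not separate observations.

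By share, 6 of the 13 genes did not overlap between controls and baseline. When every gene tested was measured against the same mitochondrial protein-gene counts, 33.2% of all genes did not overlap, so this count is given as a description. COX2 and COX3 were higher in the controls, and ND4L, ND4, ND5 and CYTB were lower. When library sizes were set to the mitochondrial total, so that a gene is measured relative to the others, ND4L had a log2 fold change of -1.79 with an unadjusted p of 0.0446 and an adjusted p of 0.997 by edgeR.

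**Figure D3:**
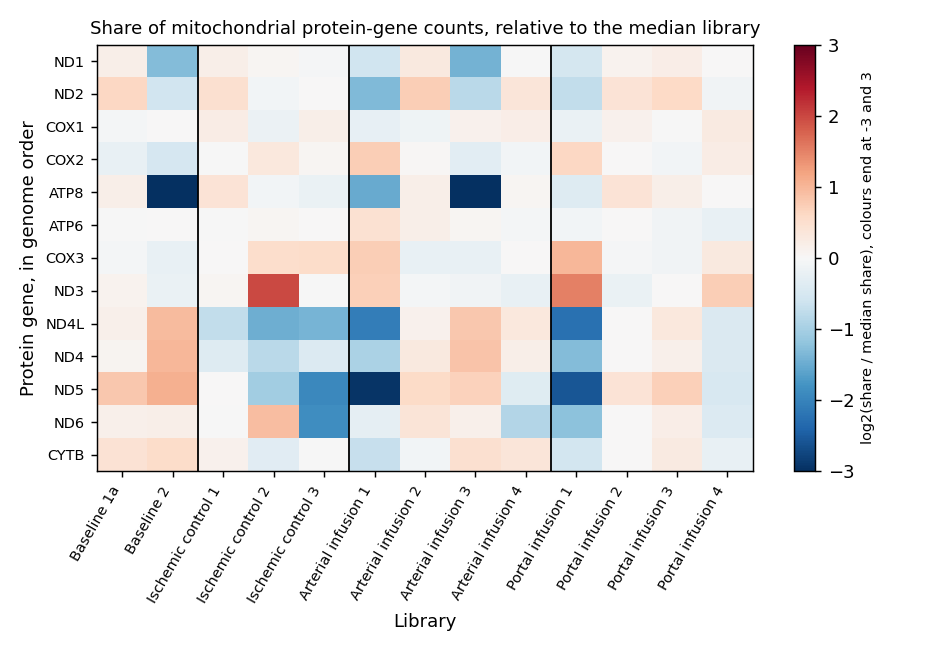
Share of each protein gene (rows, in genome order) in the mitochondrial protein-gene counts of each library (columns, groups divided by black lines), as log2 of the share over the median share of the 13 libraries. Red is above the median library and blue below. Baseline 2 and Arterial infusion 3 share very low ATP8 and low ND1, and Arterial infusion 1 and Portal infusion 1 share low ND4L, ND4 and ND5.

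ND5, the largest of the mitochondrial protein genes by length, had the widest share after ATP8. It held 6.70% and 7.999% at baseline, 3.82%, 1.86% and 1.01% in controls, 0.50004%, 5.66%, 6.19% and 2.98% after arterial and 0.648%, 5.03%, 6.27% and 2.72% after portal infusion. The 4 lowest libraries were thus Arterial infusion 1, Portal infusion 1 and Ischemic controls 3 and 2, from 3 of the 4 groups. In these 4 libraries the summed neutrophil markers were between 124 and 344 CPM, and in the other 9 between 17.5 and 177 CPM. Summed erythroid markers were between 57.6 and 881 CPM in the 4 and between 34.2 and 540 CPM in the 9, hepatocyte markers between 32440 and 65910 CPM and between 28720 and 83050 CPM. Genes with at least 1 count numbered 13581 to 20282 in the 4 and 14264 to 19711 in the 9. The part of other cells in the ND5 share was not tested.

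By group, summed neutrophil markers were between 24.9 and 26.5 CPM at baseline, 41.7 and 344 CPM in controls, 17.5 and 294 CPM after arterial and 18.8 and 124 CPM after portal infusion. All 3 controls thus had lower complex I shares and higher neutrophil markers than both baseline libraries. Of all genes tested, 30.8% did not overlap between these groups, so this is a description. The neutrophil sum covers 4 of 6 listed markers. Summed macrophage markers overlapped (1053 and 543 CPM at baseline, 1010 to 1525 CPM in controls), as did erythroid markers (42.4 and 66.0 against 57.6 to 881 CPM). The sums of the other listed cell types overlapped as well. The part of these markers in the shares was not tested.

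ATP8 set 2 libraries apart from the rest. Its share was 0.00462% in Baseline 2 and 0.00729% in Arterial infusion 3, which rest on 56 and 195 reads, and between 0.0875% and 0.333% in the other 11 libraries. Against 100 counts of ATP6, its neighbour on the same messenger, ATP8 had 0.0368 and 0.0561 in these 2 libraries and 0.505 to 2.68 in the others. Other genes moved with it. ND1 held 2.09% and 1.95% of protein-gene counts against at least 3.44% elsewhere, and COX2 held 8.06% and 9.20% against at least 9.75%. ND4L (1.55% and 1.40%), ND4 (14.3% and 12.96%) and CYTB (8.83% and 8.42%) lay above all 11 other libraries.

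Of the 16 genes without a symbol that were tested, 3 lay below all other libraries in both Baseline 2 and Arterial infusion 3, 0 lay above them in both, and 13 did neither. ENSSSCG00000018079 had 0 and 2 counts in Baseline 2 and Arterial infusion 3 against 139 to 3257 in the other libraries, and ENSSSCG00000018072 had 0 and 0 against 18 to 531. ENSSSCG00000018063 had 582 and 1493 counts against at least 1786. A count of 0 allows up to 3 reads. The 2 libraries come from different groups, 1 without ischemia and 1 with arterial infusion, and over the 13 shares each was the nearest library of the other, with a root mean square log2 distance of 0.238. Their total counts, 26865538 and 35348239, lay within the range of the others.

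Composition did not follow the groups. In 1 of 13 libraries, Portal infusion 2, the nearest library by composition belonged to the same group. The median distance was 1.06 over the 16 pairs of libraries within a group and 0.938 over the 62 pairs between groups. Baseline 1a was closest to Portal infusion 3, at 0.0940, the smallest distance of all pairs.

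The comparison of infused livers with ischemic controls asks whether they differed after infusion of cells. None of the 13 protein genes passed the test (edgeR, lowest adjusted p of a protein gene = 1.00), beside 0% of all genes. With an unadjusted p under 0.05 by edgeR there were 2 of 13, ND4L and ND4, against 2.14% of all genes, and DESeq2 and voom called 0 of 13 after adjustment. Unadjusted, DESeq2 over all libraries had 5 of 13 and voom 7 of 13, without a share of all genes for comparison. All 13 had a positive log2 fold change with a median of 0.89, beside -0.023 for all genes tested. These fold changes are not independent of each other, because the mitochondrial genes of a library moved with its total mitochondrial share. Between infused livers and controls 0 of 13 had values that did not overlap, beside 0.613% of all genes.

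ND4L measured 141, 1928, 1056 and 1520 CPM after arterial infusion and 94.8, 953, 982 and 940 CPM after portal infusion, against 376, 139 and 221 CPM in controls. Its log2 fold change was 2.00 ± 0.80 (SE) with an unadjusted p of 0.0241 and an adjusted p of 1.00 by edgeR, and over 26 alternatives the adjusted p was between 0.182 and 1. Of the 8 infused livers 6 lay above every control, and Arterial infusion 1 and Portal infusion 1 lay within or below the control range. ND4 had a log2 fold change of 1.42 ± 0.66 (SE) with an unadjusted p of 0.0475 and an adjusted p of 1.00 by edgeR. Its values were 2742, 19272, 9812 and 12343 CPM after arterial, 1623, 8560, 7928 and 8506 CPM after portal infusion and 4318, 1977 and 3984 CPM in controls.

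Among the other genes, ND5 had a log2 fold change of 1.73 ± 0.96 (SE; adjusted p = 1.00 by edgeR), COX1 0.82 ± 0.55, COX2 0.89 ± 0.48 and ND3 the smallest, 0.26 ± 0.48. Scaled to the mitochondrial total, the median of the 13 was -0.081 and 8 of them changed sign. ND4L stayed positive under this scaling at 1.06. With TMM, RLE or upper quartile scaling, or scaling to nuclear genes alone, all 13 were positive. Without Portal infusion 1 the log2 fold change of ND4L was 2.19 ± 0.65 (SE; unadjusted p = 0.00458, adjusted p = 1.00 by edgeR), without Arterial infusion 1 it was 2.19 (adjusted p = 1.00), and without Baseline 2 and Arterial infusion 3 it was 2.02 ± 0.86. Over all single libraries left out it ran from 1.77 without Arterial infusion 2 to 2.46 without Ischemic control 1. Without Ischemic control 2, and also without Ischemic control 3, no protein gene had an unadjusted p under 0.05 by edgeR. The unadjusted p-values of ND4L and ND4 thus depended on single controls.

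Each infusion route was also set against the same 3 controls. After arterial infusion 0 of 13 protein genes passed the edgeR test beside 0% of all genes, and 3 of 13 (ND4L, ND4 and ATP6) had an unadjusted p under 0.05 beside 1.57%. The log2 fold changes of these 3 were 2.35 ± 0.86, 1.82 ± 0.72 and 1.19 ± 0.55 (SE), with adjusted p = 1 by edgeR. After portal infusion 0 of 13 passed the edgeR test beside 0%, and 0 of 13 had an unadjusted p under 0.05 beside 2.79% of all genes. DESeq2 and voom called 0 of 13 in both after adjustment. At an unadjusted p under 0.05, voom had 6 of 13 for the arterial and 5 of 13 for the portal route. DESeq2 over all libraries had 6 and 1, so the count depended on the method. No share of all genes is given for these fits. Without Ischemic control 2, or without Ischemic control 3, no protein gene had an unadjusted p under 0.05 by edgeR for the arterial route. ND4L had a log2 fold change of 1.66 ± 0.84 (SE; adjusted p = 1 by edgeR) after portal infusion. The median of the 13 was 1.08 for the arterial and 0.70 for the portal route, and without Arterial infusion 2 the arterial median was 0.53.

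Arterial and portal infusion were compared directly as well. By edgeR 0 of 13 protein genes passed beside 0% of all genes, 0 of 13 had an unadjusted p under 0.05 beside 2.4%, and 0 of 13 did not overlap beside 1.28%. DESeq2 and voom also called 0 of 13. The median log2 difference, arterial over portal, was 0.46, and it was -0.18 without Arterial infusion 2 and 0.12 without Portal infusion 1. The sign of the difference thus depended on 1 liver.

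With all 11 livers at 6 h against baseline, 0 of 13 protein genes passed (edgeR, lowest adjusted p of a protein gene = 0.860; background 0%; DESeq2 and voom also 0). At an unadjusted p under 0.05 there were 3 of 13, COX2, COX3 and ND3, beside 4.78% of all genes. Their log2 fold changes were 1.33 ± 0.58, 1.21 ± 0.53 and 1.37 ± 0.60 (SE), each with an adjusted p of 0.860 by edgeR. Without Baseline 2, with Baseline 1a as the only baseline library, COX2, COX3 and ND3 had log2 fold changes of 1.00, 0.92 and 1.02. The median of the 13 was then 0.48 in place of 0.92. With all libraries, voom had 7 of 13 at an unadjusted p under 0.05 and DESeq2 had 3 of 13, without a share of all genes for comparison.

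Ratios of 2 mitochondrial genes within a library do not depend on the total. For 5 ratios and 3 comparisons, 15 two-sided exact permutation tests were run, and the smallest adjusted p was 0.643. The exact test of 2 against 3 libraries cannot give a p below 0.1. By CPM, 30.8% of all genes tested did not overlap between controls and baseline, so ratios that do not overlap between them are given as a description. ND4L per 100 counts of ND4, its neighbour on the same messenger, was 11.7 and 10.9 at baseline and 8.71, 7.03 and 5.56 in controls, without overlap, a log2 difference of -0.69 (exact permutation p = 0.2, adjusted 0.643). In the infused livers this ratio ran from 5.16 to 12.4 per 100, and 6 of the 8 lay above every control (log2 difference 0.43, exact permutation p = 0.218, adjusted 0.643).

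ND6 per 100 counts of ND5 was 31.4 and 26.9 at baseline and 49.3, 192 and 51.7 in controls (log2 difference 1.44, exact permutation p = 0.3, adjusted 0.643). It reached 316 in Arterial infusion 1 and 124 in Portal infusion 1, against 33.9 to 52.7 in the other 6 infused livers. Since ND6 and ND5 lie on opposite strands and the libraries keep no strand, part of the ND6 counts may come from the other strand, which was not tested. CYTB per 100 counts of ND1, the last protein gene over the first, was 139 and 422 at baseline and 112, 87.8 and 119 in controls (log2 difference -1.197, exact permutation p = 0.1, adjusted 0.643). The 422 belongs to Baseline 2, and Arterial infusion 3 was its match with 432, while the other 7 infused livers had 89.8 to 150.

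COX3 per 100 counts of COX1 was 60.5 and 51.9 at baseline and 52.0, 97.9 and 78.0 in controls, with overlap. It was 120 in Arterial infusion 1 and 140 in Portal infusion 1 against 47.8 to 61.2 in the other 6 infused livers. Arterial against portal infusion gave a log2 difference of -0.15 (exact permutation p = 0.486, adjusted 0.727). The same 2 infused livers stood apart in ND4L over ND4, ND6 over ND5 and COX3 over COX1.

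**Figure D4:**
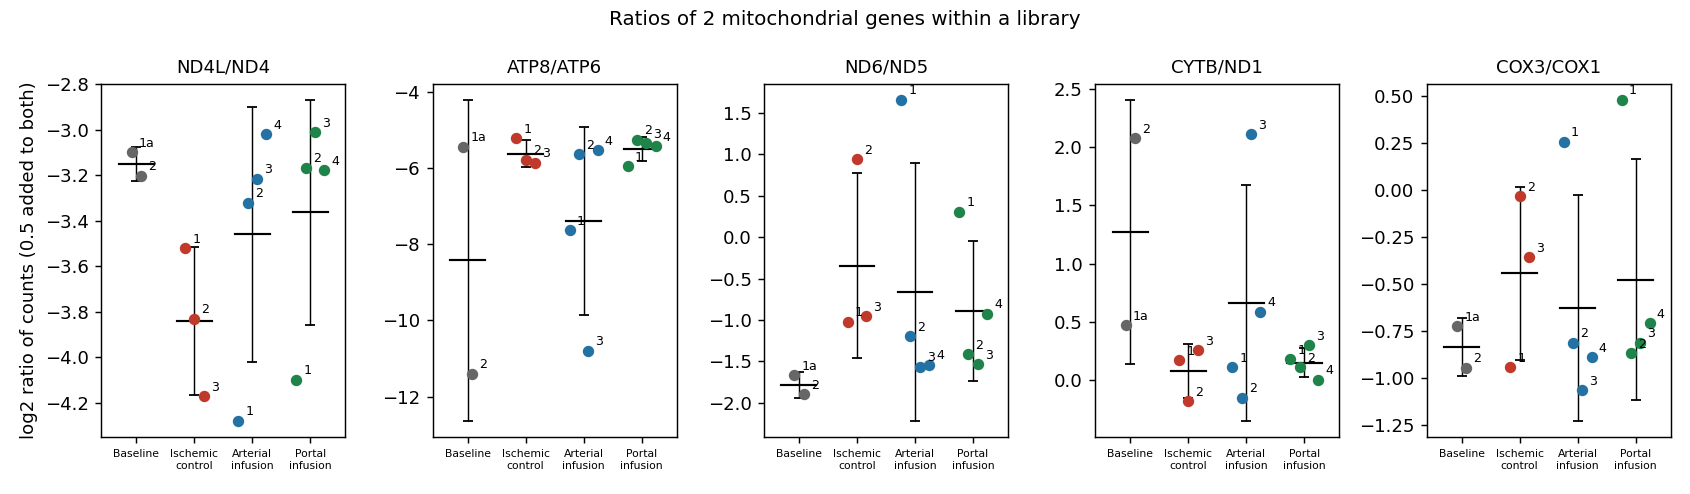
Log2 ratio of the counts of 2 mitochondrial genes in each library (y axis, 0.5 added to both counts) by group (x axis), for 5 gene pairs. Points are libraries with replicate numbers, lines are means and bars ± 1 SD. For ND4L/ND4, ND6/ND5 and CYTB/ND1 the controls do not overlap baseline, as is the case by CPM for 30.8% of all genes tested. No ratio passed its test. Single libraries, such as Baseline 2 and Arterial infusion 3 for ATP8/ATP6, lie far from their groups.

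Of the 24 genes without a symbol, 16 had enough counts to be tested and 8 did not, of which ENSSSCG00000018095 had a count of 0 in all 13 libraries. Together the 24 held 0.137% to 1.39% of the mitochondrial counts in 12 libraries and 11.8% in Portal infusion 1. ENSSSCG00000018061 and ENSSSCG00000018063 held 62.0% to 99.4% of the counts of the 24. ENSSSCG00000018061 was at 42.3 and 27.8 CPM at baseline, at 66.2, 165 and 473 CPM in controls, at 346, 273, 94.3 and 685 CPM after arterial and at 3509, 87.9, 80.4 and 1124 CPM after portal infusion. ENSSSCG00000018063 was at 57.7 and 21.7 CPM, at 65.6, 228 and 408 CPM, at 378, 531, 42.2 and 671 CPM and at 3905, 112, 77.6 and 981 CPM in the same order. Both were lowest at baseline, apart from ENSSSCG00000018063 in Arterial infusion 3, and they ranged widely within every other group.

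For all livers at 6 h against baseline, ENSSSCG00000018061 had a log2 fold change of 3.72 ± 1.33 (SE) with an unadjusted p of 0.0136, and ENSSSCG00000018063 one of 3.69 ± 1.42 with an unadjusted p of 0.0204, both with an adjusted p of 0.860 by edgeR. For controls against baseline the values were 2.77 ± 1.33 and 2.64 ± 1.41 (SE; adjusted p = 0.978 by edgeR). By edgeR 0 of the 16 passed in any of the 6 comparisons, 2 of 16 had an unadjusted p under 0.05 in all livers at 6 h against baseline, beside 4.78% of all genes, and 0 of 16 had one in the other 5 comparisons, beside 1.57% to 4.37%. Between controls and baseline 6 of 16 did not overlap, near the background of 30.8%.

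These 2 genes were the only mitochondrial genes called under any alternative. DESeq2 on the control and baseline libraries alone called both, with log2 fold changes of 2.81 ± 0.69 and 2.70 ± 0.70 (SE) and adjusted p-values of 0.00948 and 0.0192 by DESeq2, in a fit that called 0.702% of the 23633 genes it tested. With DESeq2 over all 13 libraries the adjusted p-values were 0.945 and 0.991. For all livers at 6 h against baseline, edgeR without a filter on low counts called both with adjusted p-values of 0.0205 and 0.0307, in a fit that called 0.112% of 24918 genes, and voom gave 0.0534 and 0.112. Over the 26 alternatives the adjusted p of ENSSSCG00000018061 in that comparison ran from 0.0205 to 1.00. Without Portal infusion 1 the log2 fold changes were 3.26 ± 1.09 and 3.16 ± 1.15 (SE; adjusted p = 0.835 by edgeR), and without Baseline 2 they were 3.50 ± 1.85 and 3.18 ± 1.91 (SE; adjusted p = 1.00 by edgeR).

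For infused livers against controls the 2 genes had log2 fold changes of 1.43 ± 0.95 and 1.57 ± 1.03 (SE; adjusted p = 1.00 by edgeR). Without Portal infusion 1 these were 0.74 ± 0.79 and 0.77 ± 0.83, and without Portal infusion 1 and Portal infusion 4 they were -0.32 ± 0.56 and -0.14 ± 0.68, so the direction of this comparison changed without these 2 portal livers. Arterial infusion alone against controls gave 0.63 ± 1.00 and 0.86 ± 1.08 (SE), which was also not called by edgeR. Portal infusion 1 and Portal infusion 4 were also the libraries with the fewest genes detected, 13581 and 14264 against at least 15460 in the others, and the part of this in the values was not tested. Poly-T selection keeps RNA with a run of A, so these counts do not measure the whole amount of rRNA or tRNA in the liver.

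**Figure D5:**
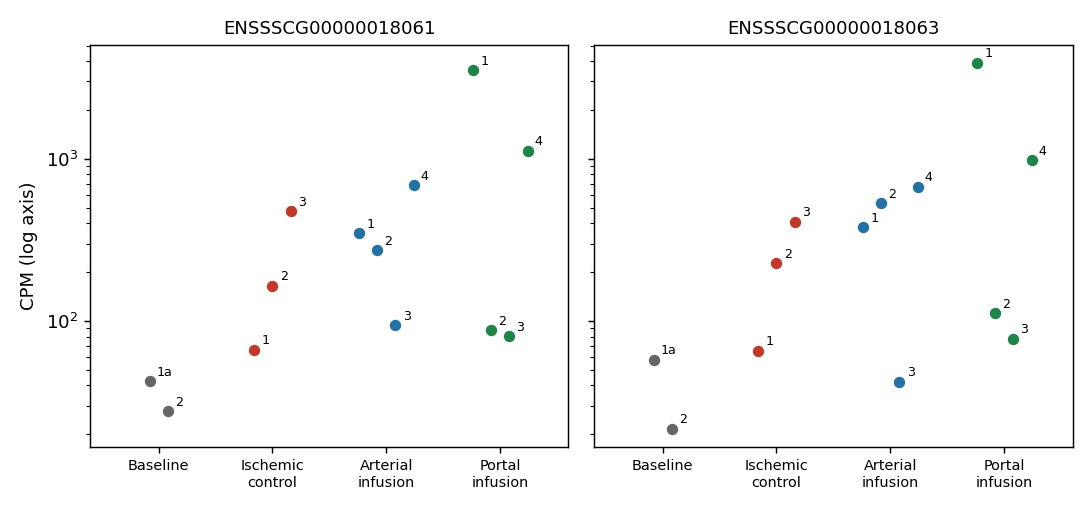
CPM (y axis, log scale) of the 2 mitochondrial genes without a symbol that hold most of the counts of such genes, for each library by group (x axis), with replicate numbers. The baseline libraries lie between 21.7 and 57.7 CPM, Portal infusion 1 lies at 3509 and 3905 CPM.

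The spread between livers differed widely among these genes. The within-group SD of log2 CPM had a median of 1.10 over the 13 protein genes, beside 0.888 over all genes tested and 0.618 over the 200 genes with the highest mean level. Of the 13, 7 had an SD above the median of all genes and 6 below it. The biological coefficient of variation of edgeR had a median of 0.597 over the 13 and 0.594 over all genes. ATP8 (2.42), ND5 (1.87) and ND4L (1.51) had the largest SD of the 13, and COX3 (0.487) and COX2 (0.593) the smallest. Of all genes tested, 16.7% had a smaller SD than COX3.

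The nuclear genes of the same complexes give a frame for these values. Of a list of 78 nuclear subunits of complexes I to V, 65 were tested. For controls against baseline 61 were higher and 4 lower, 20 had an unadjusted p under 0.05 beside 4.37% of all genes, all 20 higher, and 0 passed after adjustment by edgeR. DESeq2 over these 2 groups alone called 1 of 65, ATP5ME, beside 0.702% of all genes. The median log2 fold change was 1.14, beside 0.33 for the mitochondrial genes and 0.0048 for all genes. ATP5MK (1.76 ± 0.59), NDUFA1 (1.98 ± 0.69) and ATP5MC1 (2.38 ± 0.92, SE), subunits of complexes V, I and V, had the smallest p of the list, each with an adjusted p of 0.978 by edgeR. These values rested on Ischemic control 2, where NDUFA1 was at 82.8 CPM against 18.5 and 21.5 CPM in the other controls and 11.8 CPM in both baseline libraries. Without Ischemic control 2 the log2 fold changes of ATP5MK, NDUFA1 and ATP5MC1 were 0.79 ± 0.43, 0.73 ± 0.49 and 1.06 ± 0.77 (SE; adjusted p = 1 by edgeR). The median of the list was then 0.53, with 64 higher and 1 lower, and 0 of 65 had an unadjusted p under 0.05 beside 1.83% of all genes. That count of 20 also became 4 without Baseline 1a, 1 without Baseline 2, 35 without Arterial infusion 1 and 39 without Ischemic control 3. Ischemic control 2 had the highest summed neutrophil (344 CPM) and erythroid markers (881 CPM) of all libraries. Its summed nuclear subunits (9163 CPM) were matched by Arterial infusion 1 (9159 CPM), with 294 CPM of neutrophil and 176 CPM of erythroid markers. Portal infusion 1 had 8202 CPM, with 124 and 702 CPM of these markers. Arterial infusion 4 had 4255 CPM, with 177 and 540 CPM. The part of these markers in the values was not tested.

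For infused livers against controls 10 of 65 were higher and 55 lower with a median of -0.20, where all 13 mitochondrial genes were higher, and 0 had an unadjusted p under 0.05. Summed nuclear subunits were at 5587, 9163 and 4778 CPM in the controls and at 4099 to 9159 CPM in the infused livers, with overlap. The highest control was again Ischemic control 2. No value of the list without that library is given for this comparison, so its direction may rest on 1 control.

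Mitochondrial protein-gene counts were 17.0 and 14.6 times the summed nuclear subunit counts at baseline, 14.2, 5.28 and 15.4 times in controls, and 6.80 to 48.7 times in infused livers. The sum covers the 66 listed subunits found by symbol, among them those of complex II, which has no mitochondrial gene. Listed subunits without a matching symbol, such as ATP5F1B, COX6B1 and UQCRH, are missing from it, so the size of the multiples depends on the genes found. For complex I alone the multiple was 18.4 and 16.2 at baseline and 12.5, 3.89 and 9.02 in controls, without overlap. For complex III it was 9.96 and 10.6 at baseline and 6.62, 2.57 and 7.51 in controls, also without overlap. By CPM, 30.8% of all genes tested did not overlap between these groups, so this is given as a description and not as a result about these complexes. For complex IV (49.9 and 38.9 against 49.5, 10.9 and 46.6) and complex V (6.90 and 5.90 against 5.29, 2.62 and 6.96) the groups overlapped. Over all complexes the lowest multiples belonged to Ischemic control 2 (5.28), Portal infusion 1 (6.80) and Arterial infusion 1 (8.14). These are 3 of the 4 livers with the lowest ND5 shares, and the remaining one, Ischemic control 3, had the highest multiple of the controls.

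The nuclear genes that copy, transcribe, process and stabilise mitochondrial RNA showed no called change. Of 51 on this list, 50 were tested, and 0 passed in controls against baseline or in infused livers against controls (edgeR), with 1 and 0 at an unadjusted p under 0.05 beside 4.37% and 2.14% of all genes. Medians were -0.19 and -0.078. TFAM, which packs mitochondrial DNA and takes part in starting its transcription, had log2 fold changes of -0.13 ± 0.45 and 0.65 ± 0.35 (SE) in the 2 comparisons. POLRMT, the mitochondrial RNA polymerase, had 0.087 ± 0.54 and -0.33 ± 0.40. LRPPRC, which stabilises mitochondrial messengers, had 0.026 ± 0.69 and -0.56 ± 0.50, and its partner SLIRP had 1.196 ± 0.51 (unadjusted p = 0.0338, adjusted p = 0.978 by edgeR) and -0.11 ± 0.36. Without Ischemic control 2 the value of SLIRP for controls against baseline was 0.76 ± 0.50 (SE). PPARGC1A, a regulator of mitochondrial biogenesis, had 0.83 ± 0.55 and -0.23 ± 0.39.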

How the data were processed

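RNA was measured in 13 pig liver libraries in 4 groups taken from the sample labels. After quality trimming, the authors used HISAT2 for alignment to Sscrofa11.1 and FeatureCounts (Ensembl gene models) for counting, and deposited the raw, unnormalized counts. Tool versions and the treatment of reads on several genes or places are not given in the sources used here. 0 columns were left without a sample.

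Tests used R 4.3.3 and edgeR 4.0.16 (filterByExpr, TMM, quasi-likelihood test, Benjamini-Hochberg adjustment over 16481 genes, threshold 0.05), with the 4 groups in 1 fit. The code was also run on simulated counts for controls against baseline. The planted changes were larger than the fold changes of the protein genes, so that run does not show how well changes of their size are found. CPM are counts per 1 M counts of the library. Lengths, positions and biotypes are those of the RefSeq annotation, matched by symbol for 13 genes. Ratios had 0.5 added to both counts. Total counts ran from 18975413 to 35949178 per library.

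Alternatives were DESeq2 1.42.0, limma 3.58.1 voom with quality weights, fits over the groups compared, other scalings and filters, the replicate number as a block, and each library left out. Leaving out pairs of libraries was chosen after seeing the data. Members and gene lists were chosen with earlier results of these data known. The named genes were all 13 protein genes, 4 regulators of mitochondrial expression, and the listed nuclear genes with the smallest unadjusted p (up to 5 of the machinery per comparison and up to 3 of the respiratory chain in controls against baseline). A planned ratio of the 2 rRNA genes and the naming of rRNA and tRNA genes were not run, because the tables do not pair names with the identifiers.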

Additional observations from a re-analysis of the deposited data

Results flagged for a closer look

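Within groups of 4 livers, 4 of 42 groups tested held a library whose gap to its nearest neighbour, divided by the range of the group, exceeded the critical value of Dixon's test at the 95% level, 0.829. Chance gives about 1 in 20, here 2.1. The ND3 share of protein-gene counts in Arterial infusion 1 was 1.387%, against 0.728% to 0.817% in the other arterial livers. The ND6/ND5 log2 ratio in Arterial infusion 1 was 1.66, against -1.56 to -1.19 in the others. The ND4L/ND4 log2 ratio in Portal infusion 1 was -4.10, against -3.18 to -3.01 in the other portal livers, and the COX3/COX1 log2 ratio in Portal infusion 1 was 0.48, against -0.87 to -0.71. The 4 values belong to 2 libraries.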

How the results depend on the processing

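The 26 alternatives include 2 added after seeing the data. Under all of them, 0 of 13 protein genes passed the adjusted threshold in each of the 6 comparisons. ENSSSCG00000018061 and ENSSSCG00000018063 passed it in 2 fits, with log2 fold changes of 2.81 and 2.70 for controls against baseline (DESeq2 over these groups) and 3.68 and 3.65 for all livers at 6 h against baseline (no filter on low counts). For infused livers against controls they turned to -0.41 and -0.37 by voom and to -0.32 and -0.14 without Portal infusion 1 and 4. For controls against baseline, leaving out Baseline 2 and Arterial infusion 3 together turned ND1 (-0.026), ND2 (-0.35), ATP8 (-0.0056) and ND6 (-0.060) on the log2 scale, and the ATP8/ATP6 log2 ratio (-0.18). ND6 was -0.73 by voom and -0.10 when scaled to the mitochondrial total. For infused livers against controls, the latter scaling gave ND1 -0.25, ND2 -0.12, COX1 -0.081, ATP8 -0.36, ATP6 -0.0016, COX3 -0.16, ND3 -0.62 and ND6 -0.25, each gene being then measured relative to the others by construction. Leaving out Portal infusion 1 and 4 together turned the COX3/COX1 ratio, arterial over portal (0.21). Of all recomputed values, 1309 were labelled the same, 34 reversed, 10 moved and 4 stronger. Fold changes and ratios were the same if they kept sign and, where tested, side of the threshold. Medians and shares of all counts were the same if they moved by less than an SD, whatever the sign. The share difference, controls over baseline, was 0.999 percentage points and -0.24 without Baseline 2. Arterial over portal it was 2.05 and -0.94 without Arterial infusion 2.

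With single libraries left out, controls against baseline ran from -0.026 to 1.90 for ND1, -0.35 to 1.28 for ND2, -0.0056 to 6.38 for ATP8, -0.35 to 0.64 for ND6 and -0.18 to 5.77 for ATP8/ATP6. Leaving out Baseline 2 gave the lowest value of ND1, ND2, ATP8 and ATP8/ATP6, and leaving out Ischemic control 2 that of ND6. ND2 was also negative without Ischemic control 1 (-0.11), and ND6 without Baseline 2 (-0.060). Infused livers against controls ran from -0.090 to 1.01 for ND3, -0.78 to 0.21 for ND6/ND5 and -0.36 to 0.098 for COX3/COX1. Arterial over portal ran from -0.34 to 0.18 for ND4L/ND4, -0.54 to 0.63 for ND6/ND5 and -0.45 to 0.17 for COX3/COX1. Where a library is left out of a group of 2, the remaining one is assumed to vary like the other groups. The cause of these changes was not tested.

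The replicate block gave 0 of 13 in each comparison. Deviations from the group means had correlations between -0.42 and 0.43 (median -0.034) over 16 pairs of libraries of the same number. Of 13 libraries, 5 correlated best with their own number. This check cannot decide whether baseline and later libraries share a pig. The 2 baseline libraries deviate from their mean as mirror images, with -0.089 for Baseline 1a and 0.089 for Baseline 2 against Ischemic control 1. Other pairs join 2 groups at 6 h, which are different pigs. As the labels do not give the number as a pairing, it is not used as one in the main fit. Groups of 2 and 3 libraries and a common biological coefficient of variation of 0.729 limit what could be detected.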
